A study of Mus musculus with 8 samples.

Results

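The S100 proteins are small calcium-binding proteins, and 10 of their genes were followed here across a knockdown of the kinase ERK5, a knockdown of its activator MEK5 and a control hairpin. The members, S100a1, S100a4, S100a6, S100a8, S100a9, S100a10, S100a11, S100a13, S100a14 and S100a16, were taken by name from the 24454 genes of the deposited tables, each through its mouse Entrez Gene number. The rule uses names and not values, but the family was chosen with earlier results of these data known. The cells were 4T1, a mouse mammary carcinoma line that forms metastases in mice. They carried a lentiviral hairpin against ERK5 (shERK5, 3 libraries, titled shERK5-1), against MEK5 (shMEK5, 2 libraries, titled shMEK5-2) or a non-targeting hairpin (shCTRL, 3 libraries), and all had been selected with puromycin. Each target was reached by a single hairpin, so an effect of the hairpin itself and of the loss of its target cannot be told apart. The labels do not say whether the libraries of a group came from separate cultures, so the p-values rest on the spread among those libraries alone, some or all of it possibly technical. Total RNA depleted of ribosomal RNA was sequenced, and values are in CPM, reads of a gene per 1000000 reads that the authors assigned to genes.

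An S100 protein carries a pair of EF-hand calcium-binding loops and usually works as a dimer. Calcium opens a surface on the dimer that binds partner proteins, among them annexins, myosin and the cytoskeleton, and several family members are also released from cells and act on receptors such as RAGE. S100A4, also called metastasin, binds the heavy chain of non-muscle myosin IIA and is known for promoting cell motility and metastasis in mammary tumours. Most S100 genes lie side by side in a cluster, on chromosome 3 in the mouse.

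Depth ran from 41397315 to 53714288 reads per library. Each hairpin had lowered its own target, with Mapk7, which encodes ERK5, at 6.53 ± 0.173 CPM in shERK5 against 26.8 ± 1.60 CPM in shCTRL (SD, n = 3 each), and Map2k5, which encodes MEK5, at 14.2 ± 0.216 CPM in shMEK5 (SD, n = 2) against 36.3 ± 0.997 CPM in shCTRL (SD, n = 3). Mapk7 was also lower in shMEK5, at 19.5 ± 1.19 CPM (SD, n = 2), a log2 fold change of -0.44 (SE 0.08, limma adjusted p = 0.000923). All 6 epithelial markers examined passed the filter on low values, which asks for 1 CPM in at least 2 libraries. Their summed level ran from 1641 to 1686 CPM in shERK5, from 1275 to 1340 CPM in shMEK5 and from 1700 to 1882 CPM in shCTRL, but the members of the list went both ways. In shERK5 Cldn4 rose by 2.04 on the log2 scale, Cdh1 by 1.56, Epcam by 1.06 and Krt19 by 1.02, while Krt8 and Krt18 each fell by 0.52. In shMEK5 Cdh1 rose by 0.56, Krt19 by 0.39 and Cldn4 by 0.17, Krt8 fell by 0.53 and Krt18 by 0.60, and Epcam stood at 0.10 (limma adjusted p = 0.401). Of 8 myeloid markers only Cd68 passed that filter, and the neutrophil gene Ly6g and the macrophage gene Adgre1 had 0 reads.

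The changes of the family went both ways. S100a4 and S100a6 fell in each knockdown, S100a14 and S100a16 rose in each, and S100a1 fell in shMEK5, while S100a10 and S100a11 passed the test against shCTRL in neither. That filter set which genes were tested, and 8 of the 10 members passed it. A gene was called at an adjusted p under 0.05 by limma with Benjamini-Hochberg adjustment over all 11623 tested genes. Against shCTRL, 3 of the tested members rose and 2 fell in shERK5, where 63.3% of all tested genes were called, 32% as higher and 31.3% as lower. In shMEK5, 2 rose and 3 fell, where 48.7% of all tested genes were called, 23.1% as higher and 25.6% as lower. Changes were that widespread in these cells, so a count of 5 in 8 does not set the family apart. The risen members include S100a14 in each knockdown, a gene that passed the filter through the knockdown libraries, which favours a rise. Libraries of a gene that do not overlap between groups, as given for several members below, were as common: they were found for 67.9% of tested genes in shERK5 against shCTRL, 68.7% in shMEK5 against shCTRL and 61% in shERK5 against shMEK5. The comparisons with shCTRL share the 3 shCTRL libraries.

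**Figure D1:**
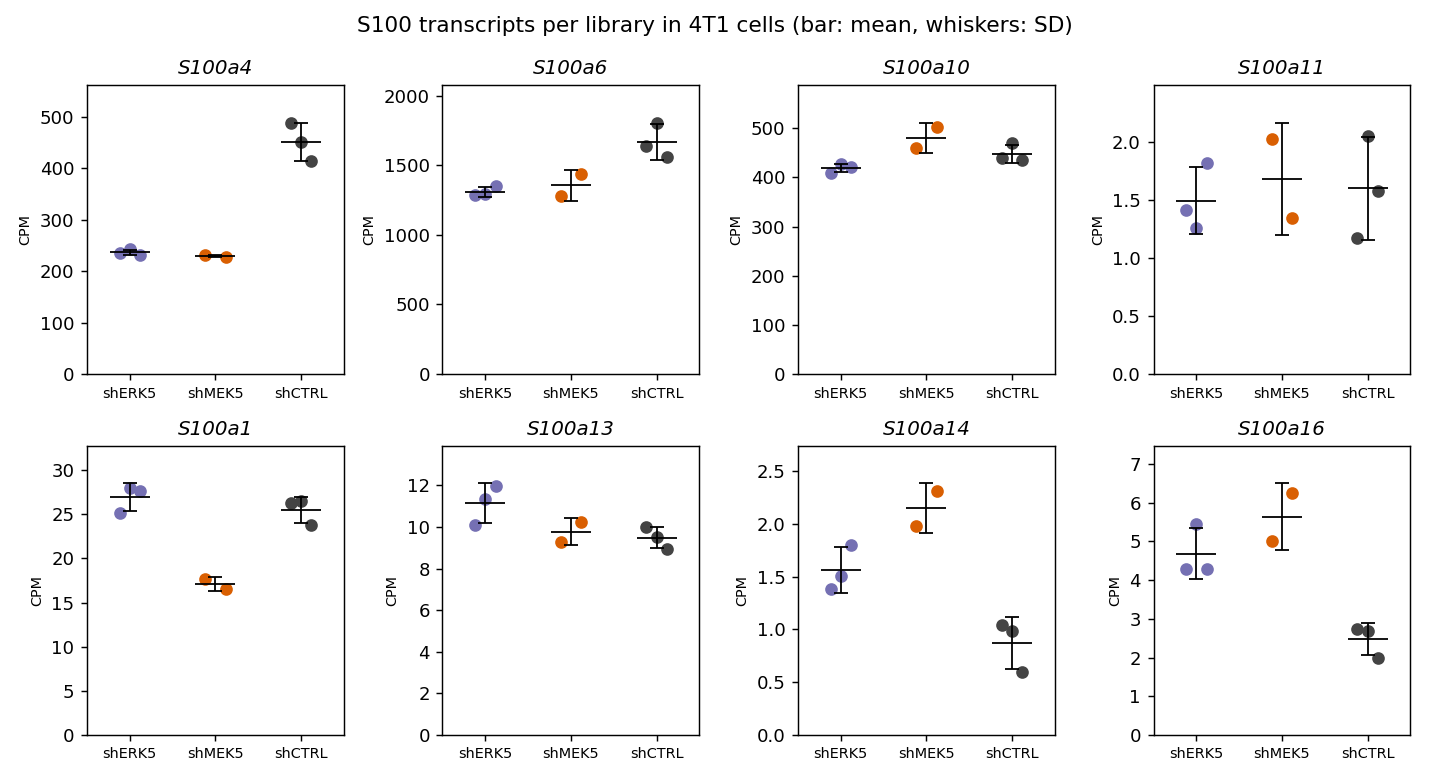
CPM of the 8 tested S100 genes in each library, in shERK5 (3 libraries), shMEK5 (2) and shCTRL (3), with a bar for the mean and whiskers for the SD; each axis starts at 0. S100a4 sits between 228 and 242 CPM in the 5 knockdown libraries and at 413 CPM or more in shCTRL, and S100a1 is low in shMEK5 alone.

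S100a4 was the member with the greatest fall in each knockdown. Its gene (Entrez Gene 20198) lies on chromosome 3 at 90603770 to 90606045 in GRCm38. It stood at 235, 242 and 232 CPM in the 3 shERK5 libraries, at 231 and 228 CPM in the shMEK5 libraries and at 488, 450 and 413 CPM in the shCTRL libraries. All 5 knockdown libraries were thus below all shCTRL libraries, and the knockdown libraries lay close together. The mean was 236 ± 5.48 CPM in shERK5 (SD, n = 3) and 230 ± 2.25 CPM in shMEK5 (SD, n = 2), which is 52.5% and 50.9% of the 451 ± 37.7 CPM in shCTRL (SD, n = 3). The log2 fold change, here and below on the log2(CPM + 1) scale, was -0.92 in shERK5 (SE 0.06, limma adjusted p = 6.57e-07) and -0.97 in shMEK5 (SE 0.07, limma adjusted p = 2.23e-06).

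Ranked by fold change, this was the 326th largest fall among the 11623 tested genes in shERK5 and the 142nd in shMEK5. The 1 CPM added before the log shrinks falls of genes at low levels more than that of S100a4, which can raise its rank. The difference between the knockdowns, shERK5 over shMEK5, was 0.04 on the log2 scale, with a 95% interval from -0.10 to 0.19 (limma adjusted p = 0.642), so a difference of the size of the fall itself lies outside that interval. In bulk RNA, fewer cells with the transcript and less of it per cell cannot be told apart. S100A4 is also used as a fibroblast marker. Of 7 fibroblast markers, Pdgfra alone passed the filter, Dcn, Lum and Thy1 had 0 reads in all libraries, and the summed level of the list ran from 22.9 to 28.2 CPM in shERK5, from 34.4 to 35.9 CPM in shMEK5 and from 31.6 to 47.3 CPM in shCTRL. Their part in the fall of S100a4 was not tested. GENCODE places another gene model, Gm42674, over 302 exonic bases of S100a4 on the same strand, and reads from the shared bases cannot be assigned to either. Gm42674 is not named among the genes of these data, so whether the S100a4 values include reads from it cannot be told.

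S100a6, also called calcyclin, lies past S100a5 from S100a4 in the cluster (Entrez Gene 20200; chromosome 3, 90612894 to 90614414, GRCm38) and was the most abundant member. It stood at 1284, 1293 and 1351 CPM in shERK5, at 1276 and 1434 CPM in shMEK5 and at 1636, 1805 and 1556 CPM in shCTRL. Every knockdown library was below every shCTRL library, although by a smaller margin than for S100a4. Its mean was 78.6% of that in shCTRL in shERK5 and 81.3% in shMEK5. The log2 fold change was -0.35 in shERK5 (SE 0.06, limma adjusted p = 0.000714) and -0.30 in shMEK5 (SE 0.07, limma adjusted p = 0.0052). The call in shMEK5 was lost without shMEK5 replicate 1, where the log2 fold change was -0.21 (limma adjusted p = 0.0666). Between the knockdowns it differed by -0.05, shERK5 over shMEK5, with a 95% interval from -0.20 to 0.11 (limma adjusted p = 0.621).

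The fold changes of S100a4 were larger than those of S100a6. The ratio of S100a4 to S100a6 CPM within a library, a measure chosen after the values were seen, averaged 0.181 ± 0.00835 in shERK5 (SD, n = 3), 0.170 ± 0.0156 in shMEK5 (SD, n = 2) and 0.271 ± 0.0250 in shCTRL (SD, n = 3). The ratios in either knockdown did not overlap those in shCTRL. The two-sided exact permutation p was 0.1 for shERK5 and 0.2 for shMEK5, the smallest that these group sizes allow. After adjustment over 6 such comparisons it was 0.24 for each. With so few libraries no ratios could have passed this test, so it does not decide whether the ratio differed. The 95% intervals of the log2 fold changes did not overlap between the genes. This is given as a description, since no test between the fold changes of the genes was fitted. In shERK5 they ran from -1.05 to -0.79 for S100a4 and from -0.48 to -0.21 for S100a6. In shMEK5 they ran from -1.11 to -0.82 for S100a4 and from -0.45 to -0.14 for S100a6.

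The sequence upstream of each of these starts is shown because both genes fell in each knockdown. The stretches are the part of the 250 bases before the RefSeq start (GRCm38.p6) that no GENCODE exon covers, 5′ to 3′ on the plus strand, at chr3:90603520-90603769 for S100a4 and chr3:90612644-90612881 for S100a6. Capitals mark matches to any of 8 motifs, searched on both strands.
S100a4: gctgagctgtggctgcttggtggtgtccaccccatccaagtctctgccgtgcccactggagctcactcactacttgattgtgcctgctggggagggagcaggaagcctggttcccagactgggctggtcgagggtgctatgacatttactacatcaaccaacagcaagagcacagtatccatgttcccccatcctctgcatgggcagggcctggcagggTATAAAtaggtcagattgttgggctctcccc
S100a6: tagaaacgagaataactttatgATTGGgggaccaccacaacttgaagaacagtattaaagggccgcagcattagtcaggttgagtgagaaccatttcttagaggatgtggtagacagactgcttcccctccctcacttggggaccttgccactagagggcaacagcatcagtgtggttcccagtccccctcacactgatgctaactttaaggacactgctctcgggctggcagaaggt
The match before S100a4 is a TATA motif (TATAAA) at bases -31 to -26 from the start, which 12.4% of 32851 upstream windows of the same length hold somewhere. The match before S100a6 is the CCAAT motif on the other strand, at -228 to -224, which 33.8% of windows hold. These stretches held no match to AP-1 (TGANTCA), TCF/LEF (ATCAAAG), the GC box (GGGCGG), GAS (TTCNNNGAA), ISRE or MEF2, a motif searched because MEF2 factors are known substrates of ERK5. A match is a description of the letters and not a site.

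Among all genes, the 5 whose pattern was closest to S100a4 were Qars, Bckdha, Pqlc3, Map3k6 and Arhgap18. Likeness was the root mean square difference over the 8 libraries in log2(CPM + 1) relative to the shCTRL mean, among 10058 tested genes with a mean of at least 5 CPM. It was 0.051 for Qars, a glutaminyl-tRNA synthetase gene, and between 0.074 and 0.089 for the other genes. Qars averaged 132 ± 8.71 CPM in shERK5 (SD, n = 3) and 124 ± 3.37 CPM in shMEK5 (SD, n = 2) against 243 ± 19.1 CPM in shCTRL (SD, n = 3). These genes were picked for their pattern, which is given with no test.

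S100a10 and S100a11 are the family's best known annexin partners. S100A10, or p11, pairs with annexin A2 at the plasma membrane, where the complex binds plasminogen, and it holds its open form without calcium. S100a10 (Entrez Gene 20194; chromosome 3, 93555117 to 93564645, GRCm38) stood at 410, 427 and 420 CPM in shERK5, at 459 and 502 CPM in shMEK5 and at 440, 469 and 435 CPM in shCTRL. The shERK5 libraries lay just below all others, and the shMEK5 libraries overlapped shCTRL. Neither knockdown passed the test against shCTRL, with log2 fold changes of -0.10 in shERK5 (95% interval -0.21 to 0.015, limma adjusted p = 0.116) and 0.10 in shMEK5 (95% interval -0.021 to 0.22, limma adjusted p = 0.152). Set against each other the knockdowns differed by -0.20, shERK5 over shMEK5 (SE 0.06, limma adjusted p = 0.0168), a call lost without shMEK5 replicate 2 (-0.13, limma adjusted p = 0.169).

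S100a11, whose protein binds annexin A1, was listed at only 1.41, 1.26 and 1.82 CPM in shERK5, 2.03 and 1.35 CPM in shMEK5 and 1.17, 2.06 and 1.58 CPM in shCTRL. The 3 groups overlapped, and the log2 fold changes of -0.05 in shERK5 (95% interval -0.38 to 0.27) and 0.05 in shMEK5 (95% interval -0.31 to 0.41) did not pass the test (limma adjusted p = 0.779 and 0.826). Its level is uncertain. GENCODE holds 7 processed pseudogenes that match the S100a11 transcript over 227 to 303 of its 511 bases, at 85.6% to 99.0% identity. The sources used here do not say how reads shared with such copies were assigned.

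S100a1 told the knockdowns apart. S100A1 is best known as a regulator of calcium cycling in heart muscle. Its gene (Entrez Gene 20193; chromosome 3, 90511034 to 90514330, GRCm38) stood at 25.1, 28.0 and 27.6 CPM in shERK5, at 17.7 and 16.6 CPM in shMEK5 and at 26.2, 26.5 and 23.8 CPM in shCTRL. Both shMEK5 libraries were below all others, whereas shERK5 and shCTRL overlapped. The log2 fold change was -0.55 in shMEK5 (SE 0.08, limma adjusted p = 0.000213), to 67.2% of shCTRL, and 0.07 in shERK5 (95% interval -0.075 to 0.22, limma adjusted p = 0.356). The difference itself, shERK5 over shMEK5, was 0.62 (SE 0.08, limma adjusted p = 0.000127). It was 1 of 2 members called between the knockdowns, S100a10 being the other. Among all tested genes, 39.4% were called there, 22% as higher and 17.4% as lower in shERK5.

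S100a13, the next gene (Entrez Gene 20196; chromosome 3, 90514233 to 90524581, GRCm38), is transcribed away from S100a1. The RefSeq windows of 300 bases around the 2 starts share 204 bases. S100A13 takes part in the release of FGF1 and interleukin-1 alpha, which lack a signal peptide. S100a13 stood at 10.1, 11.3 and 11.99 CPM in shERK5, 9.30 and 10.2 CPM in shMEK5 and 9.99, 9.52 and 8.95 CPM in shCTRL. The shERK5 libraries were above those of shCTRL by a narrow margin, and the shMEK5 libraries overlapped both. Its log2 fold change was 0.21 in shERK5 (SE 0.08, limma adjusted p = 0.041) and 0.04 in shMEK5 (SE 0.09, limma adjusted p = 0.755). The call in shERK5 was fragile. It was lost without shCTRL replicate 2 (0.21, limma adjusted p = 0.0815), shCTRL replicate 3 (0.17, limma adjusted p = 0.132), shERK5 replicate 2 (0.20, limma adjusted p = 0.0975) or shERK5 replicate 3 (0.16, limma adjusted p = 0.151). It was also lost with no filter on low values (limma adjusted p = 0.0585) and with the replicate number as a block (limma adjusted p = 0.0587). The ratio of S100a1 to S100a13 CPM was 2.42 ± 0.0993 in shERK5 (SD, n = 3), 1.76 ± 0.200 in shMEK5 (SD, n = 2) and 2.69 ± 0.0816 in shCTRL (SD, n = 3).

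S100a14 and S100a16, a pair of neighbours whose products are found in epithelia, rose from low levels. The part in this of the epithelial markers that rose, given above, was not tested. S100A14 lacks some of the residues that hold calcium in its relatives. S100a16 (Entrez Gene 67860; chromosome 3, 90537254 to 90543151, GRCm38) stood at 4.30, 5.45 and 4.30 CPM in shERK5, at 5.02 and 6.25 CPM in shMEK5 and at 2.73, 2.69 and 1.99 CPM in shCTRL. Every knockdown library was above every shCTRL library. The mean was 4.68 ± 0.663 CPM in shERK5 (SD, n = 3), 190% of shCTRL, and 5.64 ± 0.865 CPM in shMEK5 (SD, n = 2), 228% of shCTRL. The log2 fold change was 0.71 in shERK5 (SE 0.12, limma adjusted p = 0.000473) and 0.94 in shMEK5 (SE 0.13, limma adjusted p = 0.000283). Between the knockdowns it was -0.22, shERK5 over shMEK5 (95% interval -0.52 to 0.074, limma adjusted p = 0.212).

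S100a14 (Entrez Gene 66166; chromosome 3, 90526849 to 90528837, GRCm38) stood at 1.38, 1.503 and 1.80 CPM in shERK5, at 1.98 and 2.31 CPM in shMEK5 and at 1.04, 0.982 and 0.591 CPM in shCTRL. The shMEK5 libraries were highest and the shCTRL libraries lowest, with no overlap between any of the groups. The values rest on 74 to 80 reads per library in shERK5, 82 and 110 in shMEK5 and 27 to 54 in shCTRL. The gene passed the filter through the knockdown libraries, since only 1 shCTRL library reached 1 CPM, which favours a rise. Its log2 fold change was 0.46 in shERK5 (SE 0.11, limma adjusted p = 0.00523) and 0.76 in shMEK5 (SE 0.13, limma adjusted p = 0.000784), and the means were 179% and 247% of shCTRL. At so low a level the added pseudocount shrinks the fold change. With a pseudocount of 0.1 it was 0.80 in shERK5 and 1.24 in shMEK5, with adjusted p-values of 0.0057 and 0.00128 by limma, and edgeR on the recovered reads gave 0.83 and 1.32. Between the knockdowns it was -0.30, shERK5 over shMEK5 (95% interval -0.58 to -0.016, limma adjusted p = 0.0882).

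RefSeq gives S100a16 2 start windows, and the exon-free upstream stretches are shown because the gene rose in each knockdown. They lie on the plus strand at chr3:90537004-90537253 and chr3:90540896-90541145, with capitals for matches to the same 8 motifs.
S100a16 first start: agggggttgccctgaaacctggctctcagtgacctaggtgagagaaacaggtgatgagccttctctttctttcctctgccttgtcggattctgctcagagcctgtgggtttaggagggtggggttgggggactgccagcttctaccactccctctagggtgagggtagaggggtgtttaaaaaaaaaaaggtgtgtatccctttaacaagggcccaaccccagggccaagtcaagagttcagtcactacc
S100a16 second start: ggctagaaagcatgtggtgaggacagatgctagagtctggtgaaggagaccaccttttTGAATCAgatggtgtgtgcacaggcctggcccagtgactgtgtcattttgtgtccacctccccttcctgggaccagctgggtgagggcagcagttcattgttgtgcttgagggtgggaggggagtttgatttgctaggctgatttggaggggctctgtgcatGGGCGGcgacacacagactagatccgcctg
The second stretch holds an AP-1 match at -192 to -186, as 6.75% of windows do, and a GC box at -30 to -25, as 32.7% do. The first holds none of the 8 motifs. Among the stretches shown, that of S100a4 alone has a TATAAA match, and those of S100a16 and S100a6 have none. Which start is used in these cells cannot be read from gene totals.

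**Figure D2:**
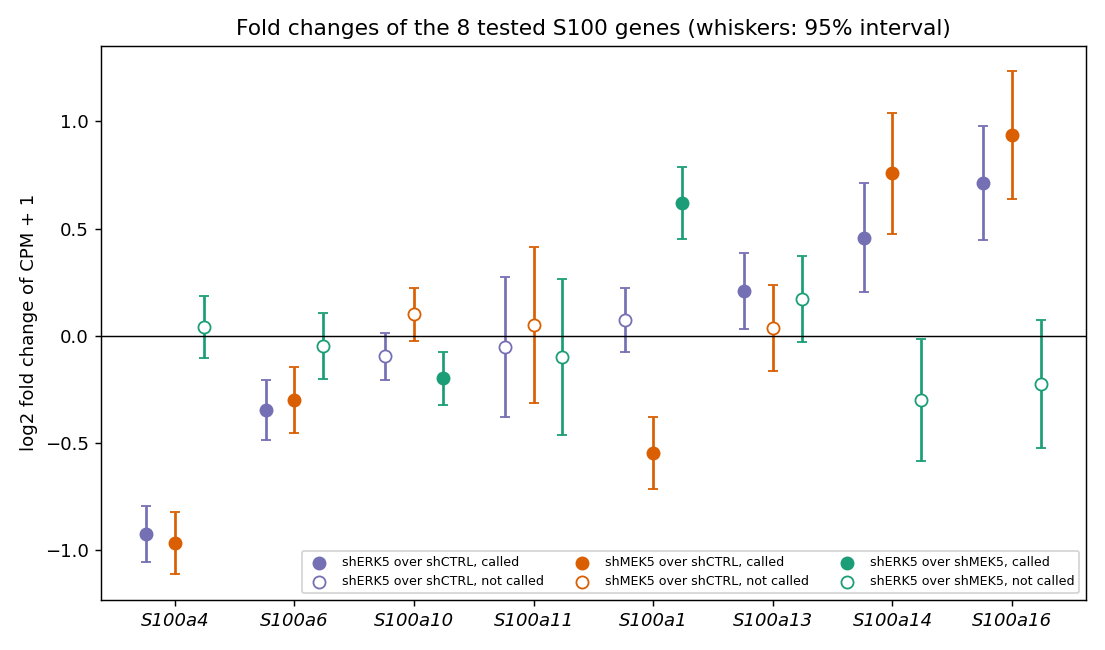
Log2 fold changes on the log2(CPM + 1) scale of the 8 tested S100 genes, for shERK5 over shCTRL, shMEK5 over shCTRL and shERK5 over shMEK5, with 95% intervals; filled points passed the test and open points did not. S100a4 is near -0.92 and -0.97 against shCTRL, and S100a1 is the member whose knockdown values lie farthest apart, by 0.62.

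S100a8 and S100a9 encode the subunits of calprotectin, the abundant protein of neutrophils that also marks inflamed tissue, and were at or near 0. S100a9 had 0 reads in all 8 libraries, so that, by counting error alone, a level up to 0.0725 CPM could go unseen in the shallowest of them. S100a8 had 5, 7 and 2 reads in shERK5, 2 and 0 in shMEK5 and 0, 3 and 0 in shCTRL, or at most 0.131 CPM. Neither passed the filter. With no filter on low values, the log2 fold change of S100a8 was 0.091 in shERK5 (95% interval 0.0019 to 0.18, limma adjusted p = 0.0924) and 0.0014 in shMEK5 (limma adjusted p = 1), and neither passed the test. The summed level of the myeloid marker list ran from 2.89 to 3.80 CPM in shERK5, from 2.03 to 2.29 CPM in shMEK5 and from 2.96 to 3.25 CPM in shCTRL, and Cd68 fell in shMEK5 by 0.43 on the log2 scale (limma adjusted p = 0.00617).

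Levels of different genes were compared per kilobase of exon. In shCTRL the order was S100a6, S100a4, S100a10, S100a1, S100a13, S100a11, S100a16 and S100a14, at 1219 ± 93.1, 772 ± 64.5, 369 ± 15.4, 36.8 ± 2.10, 13.3 ± 0.726, 3.14 ± 0.868, 1.53 ± 0.256 and 0.504 ± 0.141 CPM per kb (SD, n = 3). On this scale the 3 leading members stood above at least 99.3% of the tested genes that have a length. The fall of S100a4 moved it next to S100a10. They stood at 405 ± 9.39 and 346 ± 7.11 CPM per kb in shERK5 (SD, n = 3) and at 393 ± 3.85 and 397 ± 25.2 CPM per kb in shMEK5 (SD, n = 2), so that in shMEK5 they did not differ beyond their spread. S100a16 likewise came level with S100a11, at 2.90 ± 0.410 and 2.93 ± 0.569 CPM per kb in shERK5 (SD, n = 3). All 10 members together summed to 2010 ± 39.7 CPM in shERK5 (SD, n = 3), and to 2102 ± 140 CPM in shMEK5 (SD, n = 2), against 2604 ± 163 CPM in shCTRL (SD, n = 3), of which S100a6 held between 62.8% and 65.9% in every library.

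**Figure D3:**
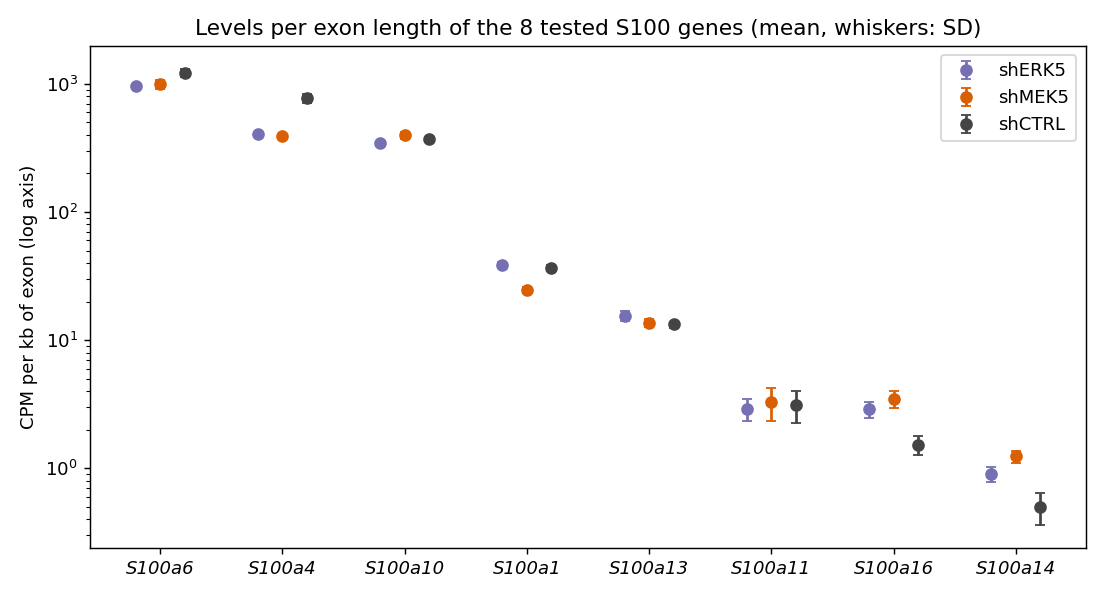
Mean level of the 8 tested S100 genes in CPM per kb of exon on a log axis, with SD, in shERK5 (3 libraries), shMEK5 (2) and shCTRL (3), ordered by the level in shCTRL. S100a6, S100a4 and S100a10 stand at 346 CPM per kb or higher in every group, and S100a14 at 1.24 CPM per kb or lower.

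Of the members, 8 lie within 184688 bases, S100a10 and S100a11 being outside this cluster. S100a4 and S100a6 fell, while S100a3, the tested S100 gene just before them, and S100a7a, the tested one just after, rose. S100a7a, whose human relative is psoriasin, a protein of inflamed skin, stood at 6.68, 6.76 and 7.09 CPM in shERK5, at 4.08 and 4.14 CPM in shMEK5 and at 1.40, 1.64 and 1.84 CPM in shCTRL. All 3 groups were apart, with shERK5 highest. Its log2 fold change was 1.58 in shERK5 (SE 0.08, limma adjusted p = 2.22e-07) and 0.96 in shMEK5 (SE 0.09, limma adjusted p = 2.02e-05), and shERK5 was above shMEK5 by 0.62 (SE 0.09, limma adjusted p = 0.000488). At that level the pseudocount shrinks the fold change, and the means were 421% of shCTRL in shERK5 and 253% in shMEK5. S100a3, a gene known from hair follicles, stood at 32.2, 34.2 and 32.0 CPM in shERK5, 35.0 and 39.2 CPM in shMEK5 and 23.8, 27.5 and 24.8 CPM in shCTRL. Each knockdown was above shCTRL, by 0.36 in shERK5 (SE 0.07, limma adjusted p = 0.00109) and 0.53 in shMEK5 (SE 0.08, limma adjusted p = 0.000302).

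Of 29 non-member genes within 500000 bases of the cluster, 22 were tested. In shERK5 6 rose and 4 fell, with a median of -0.047, and in shMEK5 4 rose and 4 fell, with a median of 0.0047, where the median over all tested genes was 0.0023 and -0.019. Over all tested genes, 63.3% were called in shERK5 and 48.7% in shMEK5. By the rule for named genes Ilf2 (-0.41, SE 0.05 in shERK5) and Dennd4b (-0.41, SE 0.08 in shERK5) stood beside S100a7a and S100a3. The other S100 genes of the tables, S100a2, S100a5, S100a7l2, S100b, S100g and S100z, had at most 21 reads in all over the libraries of a group and were not tested. S100pbp, which encodes an S100P-binding protein, was tested and did not pass, at -0.12 in shERK5 and -0.13 in shMEK5 (limma adjusted p = 0.0985 and 0.152).

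**Figure D4:**
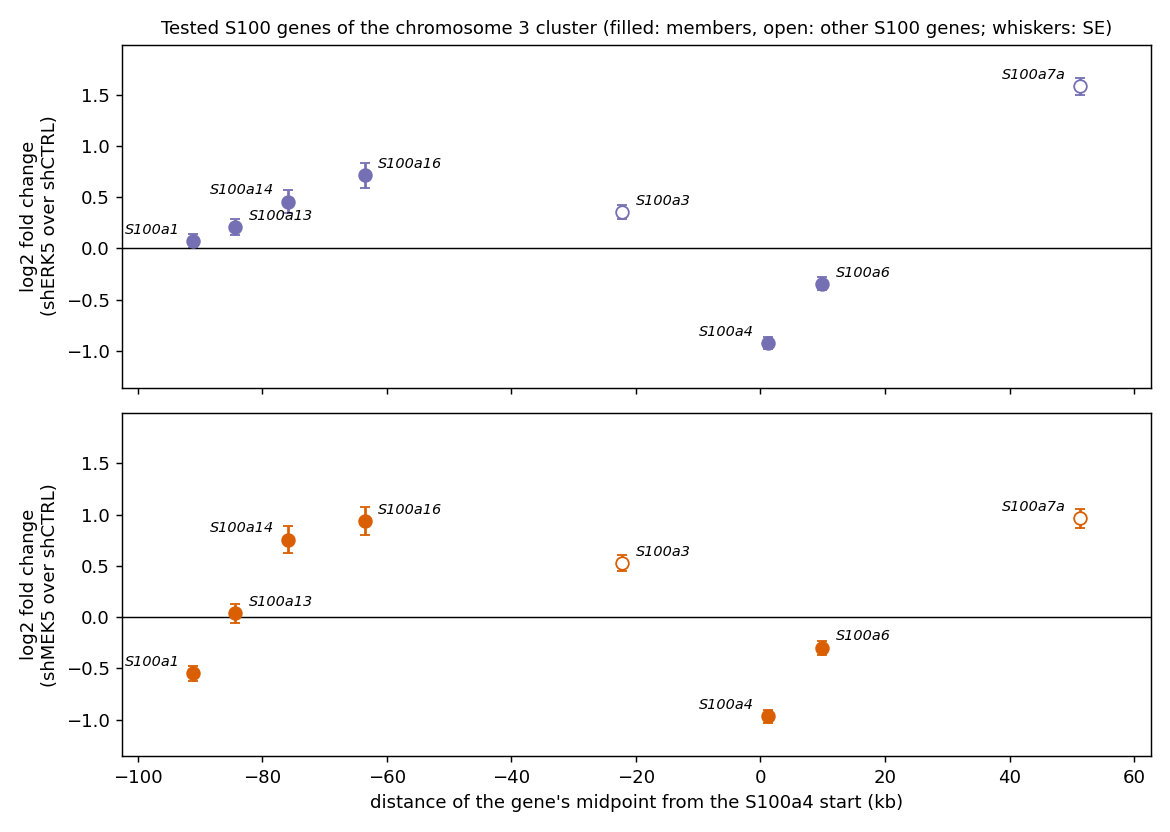
Log2 fold change against shCTRL of the tested S100 genes of the chromosome 3 cluster, by the distance of each gene's midpoint from the start of S100a4 in kb, for shERK5 (upper) and shMEK5 (lower), with SE; filled points are members and open points other S100 genes. S100a4 and S100a6 lie below 0 between S100a3 and S100a7a, which lie above it.

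Partners of the S100 proteins moved in both directions. Myh9, the non-muscle myosin heavy chain that S100A4 binds, rose, to 1035 ± 37.2 CPM in shERK5 (SD, n = 3) and 1125 ± 10.1 CPM in shMEK5 (SD, n = 2) against 774 ± 7.55 CPM in shCTRL (SD, n = 3). Its log2 fold change was 0.42 in shERK5 (SE 0.04, limma adjusted p = 1.12e-05) and 0.54 in shMEK5 (SE 0.05, limma adjusted p = 9.00e-06). Fgf1, the growth factor released with S100A13, fell in each, by 0.74 and 0.59 on the log2 scale, and so did Ahnak, the giant scaffold that binds S100A10 with annexin A2, by 0.24 and 0.23. Fgf1 was near the filter, at a mean of 0.867 CPM in shERK5 and 1.07 CPM in shMEK5 against 2.125 CPM in shCTRL. At that level the pseudocount shrinks the fold change, and the means were 40.8% and 50.2% of shCTRL. Cacybp, the calcyclin-binding protein of S100A6, rose in shERK5 by 0.22 (limma adjusted p = 0.00414) and stood at 0.01 in shMEK5 (limma adjusted p = 0.889). Of 9 tested intracellular partners, 3 rose and 3 fell in shERK5 and 2 rose and 2 fell in shMEK5, where 63.3% and 48.7% of all tested genes were called.

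Of 10 tested annexins, 3 rose and 4 fell in shERK5 and 3 rose and 3 fell in shMEK5, with medians of -0.098 and 0.063. The shares called over all tested genes were 63.3% and 48.7%. Anxa1, the partner of S100A11, rose by 0.47 in shERK5 and 0.32 in shMEK5, and Anxa3 by 0.60 and 0.28. Anxa5, an annexin that binds exposed phosphatidylserine, fell in shERK5 by 0.37 (limma adjusted p = 2.54e-05) and stood at 0.05 in shMEK5 (limma adjusted p = 0.436), while Anxa7 fell in both by 0.13 and 0.38. Of 4 tested receptors of released S100 proteins, Bsg rose in both, by 0.53 and 0.20, and Tlr4 fell in both, by 0.34 and 0.38. Egfr rose in shMEK5 by 0.89 (limma adjusted p = 4.42e-05) and stood at 0.09 in shERK5 (limma adjusted p = 0.372), at no more than 2.40 CPM in any library. The pseudocount shrinks these values too, and the means were 294% of shCTRL in shMEK5 and 115% in shERK5. Since no shERK5 or shCTRL library reached 1 CPM, Egfr was tested only because of its level in shMEK5, and its rise is to be read with that. Alcam passed in neither. Ager, which encodes RAGE, was under the filter, at 0.288 ± 0.0783 CPM in shERK5 (SD, n = 3), with 0.328 ± 0.0480 CPM in shMEK5 (SD, n = 2), against 0.425 ± 0.122 CPM in shCTRL (SD, n = 3).

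Of 5 tested genes for reported transcriptional regulators of S100 genes, 0 rose and 1 fell in shERK5, and 0 rose and 2 fell in shMEK5. Stat3, known from S100a8 and S100a9 in myeloid cells, fell in shMEK5 by 0.40 (limma adjusted p = 0.000222), as did Ctnnb1, beta-catenin, by 0.21 (limma adjusted p = 0.00428). In shERK5 Stat3 stood at -0.05 and Ctnnb1 at -0.08 (limma adjusted p = 0.436 and 0.120). Cebpb fell in shERK5 by 0.37 (limma adjusted p = 0.0429) and stood at -0.35 in shMEK5 (limma adjusted p = 0.0906). Between the knockdowns Cebpb differed by -0.02, shERK5 over shMEK5 (limma adjusted p = 0.936). Of 15 tested genes for other EF-hand proteins, 4 rose and 4 fell in each knockdown. Beside the counts of both lists stand the shares called over all tested genes, 63.3% in shERK5 and 48.7% in shMEK5. Sdf4, a Golgi calcium-binding protein, rose by 0.42 in shERK5 and 0.17 in shMEK5, while Calm2 fell by 0.23 and 0.42 and Nucb1, nucleobindin, by 0.23 and 0.66. The 9 epidermal differentiation genes matched, which share the chromosome with the S100 cluster, were all under the filter, and 8 had 0 reads in every library.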

How the data were processed

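The deposited tables hold CPM, 1 table per library; STAR and the build mm10 are named in the submitters' processing notes, and the sources used here do not give the annotation or the counting program. All values (100%) came to whole reads, to within 0.01 of a read, once divided by what 1 read is worth, and these recovered reads served the count tests. The library preparation keeps strand, per the labels' protocols. Symbols came from RefSeq (GRCm38.p6) for 24374 genes and from GENCODE M21 for 6 more, and 74 stayed unnamed. Exon lengths were those of GENCODE M21, and copies were sought with blastn 2.17.0.

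Genes with at least 1 CPM in at least 2 libraries (11623) were fitted with limma 3.58.1 (R 4.3.3) on log2(CPM + 1), with trend and robust moderation, over all 8 libraries, a mean per group and no covariate. As alternatives, the recovered reads were tested with edgeR 4.0.16, which called 7390 genes in shERK5 and 5660 in shMEK5 against shCTRL, and DESeq2 1.42.0. The fits were tested on simulated data. No libraries of a group were duplicates: chi-square per degree of freedom between them was 7.45 or more.

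The members and gene lists were chosen with earlier results of these data known. From each list at most 4 tested genes were named, those with the smallest adjusted p against shCTRL; Ager, S100pbp, genes at 0 and, after their values were seen, Krt8 and Krt18 were named to account for the lists. A gene that this rule names is not reported here. Of the list symbols 2 were not matched. A single read was worth between 0.0186 and 0.0242 CPM.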

Additional observations from a re-analysis of the deposited data

How the results depend on the processing

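Across 18 alternatives, 424 of the 432 member fold changes kept their side of the threshold, 8 lost it, and 0 called ones changed sign; the 8 are those of S100a6, S100a10 and S100a13 given with the results. The fold change of S100a4 lay between -0.99 and -0.86 in shERK5 and between -1.03 and -0.91 in shMEK5 when single libraries were left out. The number of members called when single libraries were left out was between 4 and 5 in shERK5 and in shMEK5, and between 1 and 2 for shERK5 against shMEK5; the number of all genes called there was between 2912 and 4827, against 4581 with all libraries, the lowest without shMEK5 replicate 1. The single member called without shMEK5 replicate 2 was S100a1. The lone shMEK5 library is then assumed to vary like the other groups.

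The titles number the replicates but give no batch. Deviations of same-numbered libraries from their group means correlated between -0.19 and 0.52 over 7 pairs, above 0.1 in 3. Those of differently numbered libraries of 2 groups correlated between -0.52 and 0.40. Between shMEK5 and shERK5 the same-numbered libraries correlated at 0.46 for replicate 1 and 0.52 for replicate 2. The 2 shMEK5 libraries deviate from their mean as mirror images, so these pairs are not independent. Whether same-numbered libraries share a batch is not settled by this. With the replicate block, 4 members were called in shERK5, 5 in shMEK5 and 2 between the knockdowns, and 7462, 5763 and 4435 of all genes. Low counts limit S100a14, S100a11 and S100a8.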
